A study of Homo sapiens with 6 samples.

Results

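The 2 BRPF1 knockout sets of a human embryonic stem cell study were compared with each other, KO 2# against KO 1#, across all genes of the deposited count table. The members are 4 of the 6 libraries, 2 labelled KO 1# and 2 labelled KO 2#, and the 2 WT libraries served as a reference level and in the estimate of the spread. All 6 were made from H1, an established line of human embryonic stem cells derived from a blastocyst, and the labels give the genotype WT to 2 libraries and BRPF1 knockout to the other 4. The knockout libraries of both sets carry the same labelled genotype, with no treatment, time point or further allele named. The count table heads the columns of each set with a number of its own, and the meaning of these numbers and of 1# and 2# is not given. Nor is it given whether a set is 1 clone, where BRPF1 was edited, or how replicates were grown, so p-values measure the spread between these libraries, which may be technical. Libraries were made from total RNA with a TruSeq kit and held 36901713 and 38098779 counts in KO 1#, 33421785 and 35643288 in KO 2#, and 37407858 and 34164830 in WT. The series title presents BRPF1 as a gene that pluripotency depends on, and the comparison asks how far libraries of the same labelled genotype differ from each other.

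BRPF1 is a scaffold protein with bromodomain, PHD and PWWP modules that holds together the histone acetyltransferases MOZ (KAT6A) and MORF (KAT6B) with the small subunits ING5 and MEAF6. Embryonic stem cells keep their identity through a network of transcription factors around OCT4 (POU5F1), SOX2 and NANOG. Fibroblasts and other stromal cells are known instead for collagen-rich matrix, matrix proteases and growth factor signalling, and genes of those groups are followed below beside interferon and cell cycle genes.

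The unit of level is the TMM-normalised CPM, in which the counts of each library are scaled to a common size, and a gene was called at a Benjamini-Hochberg adjusted p below 0.05 in edgeR's quasi-likelihood test. A log2 fold change above 0 means a higher level in KO 2#. In the knockout libraries the labelled cell type was not borne out by its markers. The 10 stem cell markers summed to 38.8 and 40.6 CPM in KO 1#, to 27.0 and 21.2 CPM in KO 2#, and to 6653 and 6487 CPM in WT, and PRDM14 was at 0 in every knockout library. The 10 fibroblast markers summed to between 117753 and 129342 CPM in the knockout libraries against 569 to 596 CPM in WT, although TWIST2 was at 0 in all 4. The knockout sets are therefore called by their labels below. Of the 10 stem cell markers 3 were lower in KO 2# and 0 of the 10 fibroblast markers were called in either direction. In bulk RNA, fewer cells of a type and less RNA per cell cannot be told apart.

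Replicates of a knockout set were nearly all within 2-fold of each other, but most differences between the sets were small too. Among the 10702 genes with a mean of at least 5 CPM over the knockout libraries, 1 gene differed by more than 2-fold between the KO 1# replicates and 0 genes between the KO 2# replicates. The median absolute log2 difference between replicates was 0.125 in KO 1# and 0.081 in KO 2#. Between the sets, the median absolute fitted log2 fold change of these genes was 0.11.

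Of 58395 gene identifiers, 19660 passed the low-count filter and were tested. KO 2# differed from KO 1# at 759 of them (3.86%), with 311 genes higher (1.58%) and 448 lower (2.28%). Past 2-fold stood 219 genes (1.11%), 66 higher (0.336%) and 153 lower (0.778%). The median absolute log2 fold change was 0.18 over all tested genes and 0.66 over the called ones. Among genes of at least 5 CPM, 561 of 10702 were called (5.24%), 264 higher (2.47%) and 297 lower (2.78%). The balance of directions depended on scaling: 41.0% of the calls were higher with TMM, 26.1% with scaling by library totals (227 higher, 644 lower), and 30.5% with totals that leave out the 20 most abundant genes (255 higher, 580 lower). With DESeq2 size factors it was 47.1%, and in DESeq2 (53.2%), limma-voom (53.3%), the 4 knockout libraries alone (51.2%) and the fit with length and GC offsets (54.2%) more calls were higher than lower, so neither direction leads under all of them. Scaling by totals moved the median of all genes by -0.05, and changes are given relative to the TMM scale. The number of calls depended on single libraries. Without KO 1# replicate 2 there were 695 higher and 702 lower genes, without KO 2# replicate 1 there were 175 and 302, and without KO 2# replicate 2 there were 153 and 213. Counts of list members given below read against 1.58% of all tested genes called higher and 2.28% called lower. For lists made up mostly of genes of at least 5 CPM, the shares of 2.47% and 2.78% are the nearer measure. The sets of 2 libraries did not overlap in 42.8% of all tested genes, called or not, so a statement below that libraries of a called gene did not overlap describes them and adds no support. No gene called in the comparison turned its sign in any of the 16 alternatives, which all use the same libraries and so add no separate support for a direction.

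**Figure D1:**
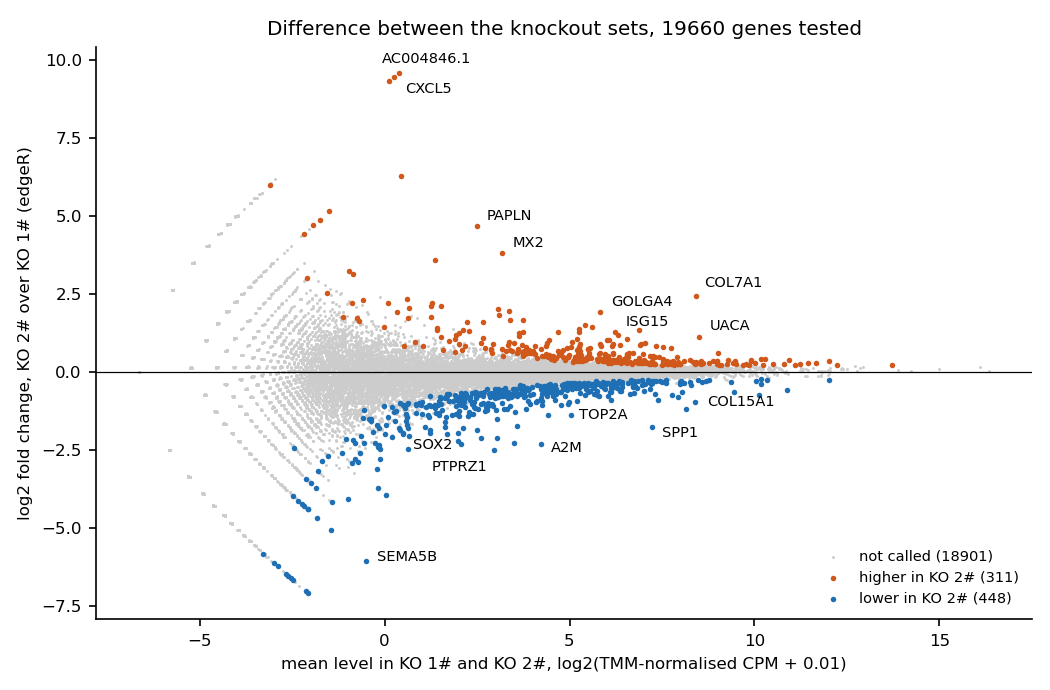
Each point is 1 of 19660 tested genes, with its mean level over the KO 1# and KO 2# means on the x axis (log2 of TMM-normalised CPM plus 0.01) and its log2 fold change, KO 2# over KO 1#, on the y axis. The 311 genes called higher in KO 2# are orange, the 448 called lower are blue, and COL7A1 stands out among the abundant genes.

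The WT libraries give a reference for these differences on the TMM scale. The TMM factors were 1.40 and 1.41 in WT and 0.83 to 0.87 in the knockout libraries. Any level relative to WT, here and below, therefore depends on this scaling, and positions of WT were not counted under another one. Of the 153 genes at least 2-fold lower in KO 2#, 125 (81.7%) had a WT mean above both knockout means, so that KO 2# lay farther from WT than KO 1# did. Of the 66 genes at least 2-fold higher in KO 2#, 31 (47.0%) had a WT mean above both knockout means, 21 (31.8%) had one between them, and 14 (21.2%) had one below both. Over all tested genes the WT mean was above both knockout means in 49.8%, between them in 6.56% and below both in 43.7%. These include genes that passed the filter through WT, since the fit of the 4 knockout libraries alone tested 16364 genes.

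The transcript of the targeted gene was present in every knockout library. BRPF1 (ENSG00000156983, chromosome 3, 9731729 to 9748018, plus strand) stood at 32.2 and 27.9 CPM in KO 1# and 25.4 and 23.6 CPM in KO 2#, against 28.4 and 23.1 CPM in WT. Both KO 2# libraries lay below both KO 1# libraries, but the difference did not pass the test (log2 fold change -0.29, SE 0.12, adjusted p = 0.237). The position of WT beside these sets rests on the TMM scaling. Before scaling, the WT libraries held 1483 and 1111 counts of BRPF1, more than KO 1# (1013 and 922) or KO 2# (702 and 701). Gene counts do not show whether a transcript carries an edit, so these values do not check the knockout. Of the 12 genes for BRPF1 and its MOZ, MORF and HBO1 complex partners, 0 passed in edgeR, and the median log2 fold change was 0.02. At an unadjusted p below 0.05 stood 1 higher and 1 lower member, DESeq2 called 1 higher, and limma-voom called 0. The edgeR fit with a replicate block also called 1 higher. So did the edgeR fit with length and GC offsets, where BRPF3 passed (log2 fold change 0.196, adjusted p = 0.0405). The paralogue BRPF3 had 74.7 and 72.5 CPM in KO 1# and 84.6 and 76.5 CPM in KO 2# (log2 fold change 0.13, SE 0.08, adjusted p = 0.482). KAT6A, the catalytic subunit MOZ, had 49.8 and 54.8 CPM in KO 1# and 47.1 and 51.8 CPM in KO 2# (log2 fold change -0.08, SE 0.09, adjusted p = 0.735). JADE1, the scaffold of the HBO1 form, had 33.4 and 33.03 CPM in KO 1# and 40.8 and 38.5 CPM in KO 2# (log2 fold change 0.26, SE 0.08, adjusted p = 0.0936).

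Interferon-stimulated genes were higher in KO 2#. These genes are switched on when interferon receptors activate transcription factors that bind the interferon-stimulated response element (ISRE) in their promoters, and their products sense, bind or degrade viral RNA and proteins. Of 34 tested, 13 rose against a background of 1.58% of all tested genes, and 0 fell in edgeR, in DESeq2, in limma-voom or at an unadjusted p below 0.05. The median log2 fold change of the list was 0.55, against 0 over all tested genes. The summed level of the list was 845 and 831 CPM in KO 1#, 1158 and 1164 CPM in KO 2# and 449.5 and 431 CPM in WT. The number called ranged from 9, without KO 2# replicate 2, to 19, with length and GC offsets.

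The promoters of the list members were searched for this element. Genes of such a list are known for carrying it, so matches describe the members and add no support for the difference between the sets. Windows of 300 bases (250 before and 50 after the start of transcription) came from RefSeq on GRCh38.p14, and 10 of the 13 called members had one. The ISRE core, GAAA followed by any 2 bases and again GAAA, searched on both strands, lay in 9 of these 10 windows and in 8 of 17 windows of members that were not called, against 3.65% of 27305 promoters. Below are 4 windows, each 5′ to 3′ on the plus strand, chosen because the values of these genes are described next (OAS3 and IFIH1, with larger rises and a match, are not shown), with each match to the core (or its reverse complement) in capitals. IFIT1 lies at chr10:89392373-89392672, IFIT3 at chr10:89327747-89328046, ISG15 at chr1:1013247-1013546 and MX1 at chr21:41420308-41420607.
IFIT1: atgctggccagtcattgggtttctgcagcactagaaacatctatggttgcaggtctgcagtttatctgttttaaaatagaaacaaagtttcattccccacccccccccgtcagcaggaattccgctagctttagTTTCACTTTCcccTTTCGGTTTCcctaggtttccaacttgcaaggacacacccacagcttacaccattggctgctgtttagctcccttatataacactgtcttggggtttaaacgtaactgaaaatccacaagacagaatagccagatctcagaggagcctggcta
IFIT3: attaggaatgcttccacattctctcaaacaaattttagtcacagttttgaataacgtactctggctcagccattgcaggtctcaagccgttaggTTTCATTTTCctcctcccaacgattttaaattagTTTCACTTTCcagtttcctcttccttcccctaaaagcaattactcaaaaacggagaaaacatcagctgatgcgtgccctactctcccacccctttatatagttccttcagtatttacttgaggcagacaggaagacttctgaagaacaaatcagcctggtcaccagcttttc
ISG15: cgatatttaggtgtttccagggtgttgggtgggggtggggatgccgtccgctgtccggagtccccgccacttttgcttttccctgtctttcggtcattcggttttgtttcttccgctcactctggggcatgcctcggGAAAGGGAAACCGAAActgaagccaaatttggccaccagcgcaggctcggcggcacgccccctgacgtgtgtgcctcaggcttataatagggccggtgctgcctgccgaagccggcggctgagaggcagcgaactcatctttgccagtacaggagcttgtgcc
MX1: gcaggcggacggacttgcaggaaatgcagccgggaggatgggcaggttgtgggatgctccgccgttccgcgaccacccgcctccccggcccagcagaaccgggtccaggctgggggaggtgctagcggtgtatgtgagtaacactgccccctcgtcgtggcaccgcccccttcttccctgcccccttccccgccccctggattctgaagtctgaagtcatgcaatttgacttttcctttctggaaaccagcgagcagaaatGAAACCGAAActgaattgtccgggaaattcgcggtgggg
The start sites are those of RefSeq, and those of IFIT1, IFIT3, ISG15 and MX1 lie inside longer GENCODE gene models. The core occurred 2 times in the windows of IFIT1, IFIT3 and ISG15 and 1 time in that of MX1. A match is a description of letters and says nothing about binding in these cells.

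Among the antiviral effectors, MX2, a GTPase that blocks entry of viral genomes into the nucleus (ENSG00000183486, chromosome 21, 41361943 to 41409390, plus strand), stood at 0.987 and 1.42 CPM in KO 1# and 16.6 and 17.3 CPM in KO 2# (log2 fold change 3.81, SE 0.21, adjusted p = 5.51e-09). Both KO 2# libraries were far above both KO 1# libraries. On the TMM scale they were also above the WT libraries, which had 9.60 and 9.04 CPM. In raw counts MX2 had 457 and 514 in KO 2#, which overlapped 502 and 434 in WT. Its neighbour MX1 (ENSG00000157601, chromosome 21, 41420304 to 41459214, plus strand), whose exons overlap the opposite-strand gene AP001610.1, stood at 2.45 and 2.18 CPM in KO 1# and 6.12 and 8.03 CPM in KO 2# (log2 fold change 1.61, SE 0.28, adjusted p = 0.00183). IFIT1, which binds viral RNA that lacks the host cap methylation, had 3.69 and 4.73 CPM in KO 1# and 16.8 and 16.2 CPM in KO 2# (log2 fold change 1.97, SE 0.2, adjusted p = 6.10e-06). Its neighbour IFIT3 had 2.93 and 3.27 CPM in KO 1# and 9.75 and 9.24 CPM in KO 2# (log2 fold change 1.61, SE 0.27, adjusted p = 0.00144). In each of these genes the libraries of KO 1# and KO 2# did not overlap. ISG15, a ubiquitin-like modifier and the most abundant interferon-stimulated gene past 2-fold (ENSG00000187608, chromosome 1, 1001138 to 1014540, plus strand), went from 43.5 and 44.4 CPM in KO 1# to 103 and 109 CPM in KO 2# (log2 fold change 1.28, SE 0.09, adjusted p = 6.87e-08), against 10.7 and 9.69 CPM in WT. OAS3, which makes the 2-5A messenger that activates RNase L, had 0.955 and 0.758 CPM in KO 1# and 3.73 and 4.28 CPM in KO 2# (log2 fold change 2.23, SE 0.35, adjusted p = 8.74e-04).

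Sensors of viral RNA were part of the rise. DDX58, the RNA sensor RIG-I, stood at 12.6 and 15.8 CPM in KO 1# and 30.5 and 27.96 CPM in KO 2# (log2 fold change 1.04, adjusted p = 7.47e-04). IFIH1, the sensor MDA5, was low throughout at 0.382 and 0.364 CPM in KO 1# and 1.34 and 2.16 CPM in KO 2# (log2 fold change 2.22, SE 0.55, adjusted p = 0.0293), and its call was lost without KO 2# replicate 2 and in limma-voom. Both KO 2# libraries exceeded both KO 1# libraries for these sensors. Of the transcription factors that carry the receptor signal, STAT2 and IRF9 did not pass. STAT2 had 124 and 127 CPM in KO 1# and 141 and 138 CPM in KO 2# (log2 fold change 0.16, adjusted p = 0.276). IRF9 had 2.26 and 2.09 CPM in KO 1# and 2.50 and 2.36 CPM in KO 2# (log2 fold change 0.16, adjusted p = 0.911). The membrane proteins IFITM2 (log2 fold change -0.07) and IFITM3 (0.08) and the tetherin gene BST2 (-0.18) did not pass either. Of 17 tested genes for HLA class I and peptide loading, another target group of interferon, 0 passed in edgeR and in limma-voom, 2 were higher in DESeq2, 3 were higher at an unadjusted p below 0.05, and edgeR called 3 and 1 without KO 1# replicate 1 and 2.

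**Figure D2:**
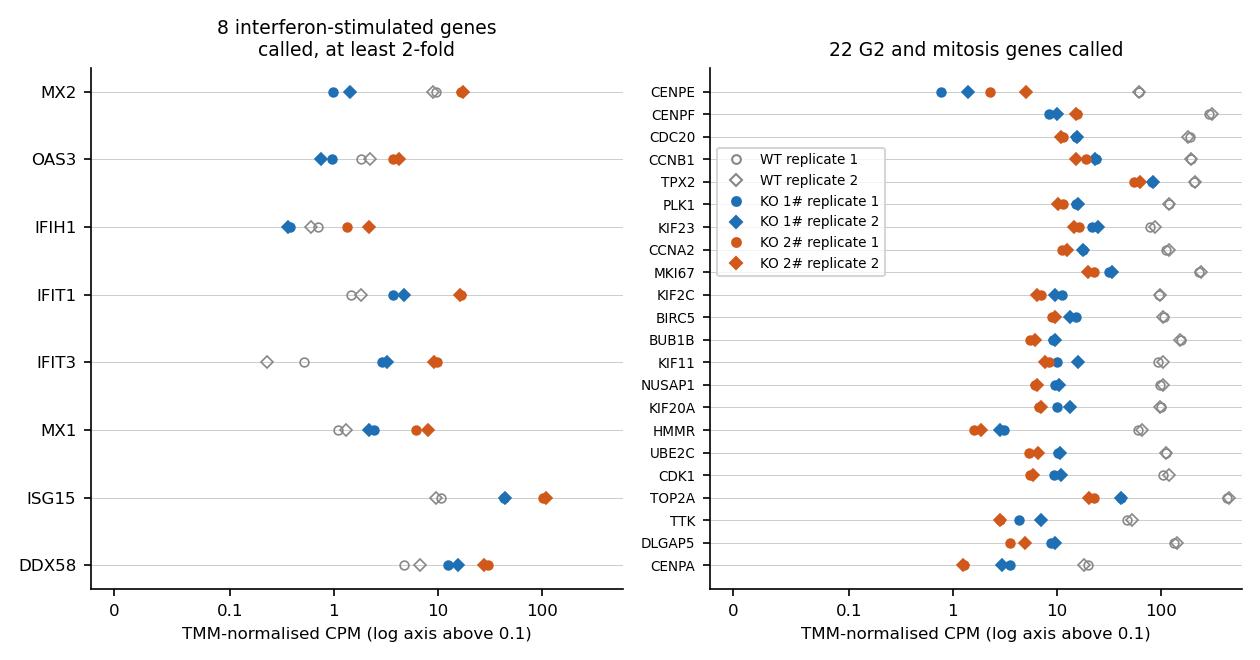
Level in every library, as TMM-normalised CPM on a log axis (linear below 0.1), for the 8 interferon-stimulated genes called at 2-fold or more and the 22 called G2 and mitosis genes. Grey open symbols are WT, blue KO 1# and orange KO 2#, and the knockout sets lie apart in opposite directions in the 2 panels except for CENPE and CENPF.

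Most G2 and mitosis genes were lower in KO 2#. Of 30 tested G2 and mitosis genes, which drive chromosome condensation, spindle assembly and division, 20 fell and 2 rose, against 2.28% and 1.58% of all tested genes, and the median log2 fold change was -0.61. The summed level was 465 and 508 CPM in KO 1# and 347 and 349.8 CPM in KO 2#, against 3636 and 3744 CPM in WT. TOP2A, the topoisomerase that untangles replicated chromosomes, stood at 41.6 and 41.5 CPM in KO 1# and 22.6 and 20.2 CPM in KO 2# (log2 fold change -0.96, adjusted p = 9.19e-07). MKI67, the Ki-67 proliferation marker, stood at 31.5 and 33.9 CPM in KO 1# and 22.8 and 19.7 CPM in KO 2# (log2 fold change -0.62, adjusted p = 3.56e-04). Both knockout sets were far below WT, at 435 and 455 CPM for TOP2A and 234 and 241 CPM for MKI67, with KO 2# the lower of them. DLGAP5, a spindle protein, had 8.72 and 9.64 CPM in KO 1# and 3.51 and 4.96 CPM in KO 2# (log2 fold change -1.11, SE 0.15, adjusted p = 1.44e-04). CENPA, the histone variant of centromeres, had 3.56 and 2.97 CPM in KO 1# and 1.27 and 1.25 CPM in KO 2# (log2 fold change -1.37, SE 0.23, adjusted p = 0.00178). CDK1, the kinase that starts mitosis, had 9.36 and 10.9 CPM in KO 1# and 5.47 and 5.90 CPM in KO 2# (log2 fold change -0.84, adjusted p = 8.42e-04). The libraries of the sets did not overlap in any of these 5 genes. The direction was not uniform within the list: CENPF, a kinetochore protein, rose from 8.47 and 9.97 CPM to 15.5 and 15.1 CPM (log2 fold change 0.73, SE 0.1, adjusted p = 2.39e-04), and CENPE, the kinetochore motor, had 0.764 and 1.39 CPM in KO 1# and 2.28 and 5.06 CPM in KO 2# (log2 fold change 1.77, SE 0.32, adjusted p = 0.00339). In limma-voom the calls of CENPE and CENPA were lost, and that of CENPE also without KO 2# replicate 2. CENPE and CENPF are long transcripts of low GC content, a group described below. In limma-voom 5 members of the list were lower and 1 higher, and without KO 2# replicate 2 edgeR called 14 lower and 1 higher.

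Promoters of the 20 lower members were searched for motifs known for genes of this phase. Matches therefore describe the list and add no support for the difference between the sets. Of 16 with a RefSeq window, 12 held the cell cycle homology region core TTTGAA, against 15.4% of all promoters, and 14 held CCAAT, against 35.7%, both strands searched. Of 7 windows of members that were not called, 3 held TTTGAA and 3 held CCAAT.

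Of 29 tested S phase genes, 12 fell (background 2.28%) and 0 rose in edgeR, in DESeq2, in limma-voom or at an unadjusted p below 0.05, with a median log2 fold change of -0.33. DTL, a substrate receptor that limits origin licensing, stood at 8.37 and 6.73 CPM in KO 1# and 3.22 and 2.77 CPM in KO 2# (log2 fold change -1.33, SE 0.17, adjusted p = 9.34e-05), the largest fall of the list. RRM2, the regulated subunit of ribonucleotide reductase, stood at 12.98 and 11.8 CPM in KO 1# and 6.70 and 7.76 CPM in KO 2# (log2 fold change -0.77, SE 0.13, adjusted p = 0.00220). Of the replicative helicase subunits MCM2 to MCM7, 5 fell by a smaller amount, from MCM2 at 23.4 and 21.03 CPM in KO 1# and 15.3 and 15.4 CPM in KO 2# (log2 fold change -0.53, adjusted p = 0.00257) to MCM6 at 33.8 and 34.5 CPM in KO 1# and 25.1 and 29.1 CPM in KO 2# (-0.33, adjusted p = 0.0485). MCM7 did not pass (-0.27, adjusted p = 0.128), nor did PCNA, the sliding clamp (0.12, adjusted p = 0.533). The count of 12 was 5 without KO 2# replicate 1, 4 without KO 2# replicate 2 and 2 in limma-voom.

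Genes of the CDK inhibitor and RB list moved in both directions. CDKN1A, the inhibitor p21 and a p53 target, had 878 and 807 CPM in KO 1# and 1113 and 1063 CPM in KO 2# (log2 fold change 0.37, SE 0.06, adjusted p = 0.00123). CDKN2A, which encodes p16 and ARF and overlaps the antisense gene CDKN2B-AS1, had 172 and 144 CPM in KO 1# and 215 and 213 CPM in KO 2# (log2 fold change 0.43, SE 0.08, adjusted p = 0.00585). CDKN2B, the neighbouring inhibitor p15, had 552 and 523 CPM in KO 1# and 712 and 688 CPM in KO 2# (log2 fold change 0.38, SE 0.06, adjusted p = 0.00144). All 3 were higher in both KO 2# libraries than in both KO 1# libraries, by less than 1.5-fold, and were far lower in WT, at 43.03 and 41.4 CPM for CDKN1A and 0.0382 and 0.104 CPM for CDKN2B. LMNB1, the nuclear lamina protein lamin B1, which the list holds although it is no CDK inhibitor, fell from 29.6 and 33.8 CPM to 15.1 and 18.8 CPM (log2 fold change -0.9, SE 0.1, adjusted p = 2.69e-05). CDKN3, a phosphatase that inhibits CDK2, also fell, from 2.77 and 3 CPM to 1.16 and 1.11 CPM (log2 fold change -1.34, SE 0.24, adjusted p = 0.00257), a call lost in limma-voom. Of 19 tested genes of the CDK inhibitor and RB list, 4 rose and 2 fell, against 1.58% and 2.28% of all tested genes, with a median log2 fold change of -0.04. Of 27 tested p53 targets 3 rose (background 1.58%), CDKN1A, TNFRSF10B and MDM2, with a list median of 0.12. That count was 1 without either KO 2# library and 6 without KO 1# replicate 2, and 0 fell in edgeR, DESeq2 and limma-voom, with 1 lower at an unadjusted p below 0.05.

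**Figure D3:**
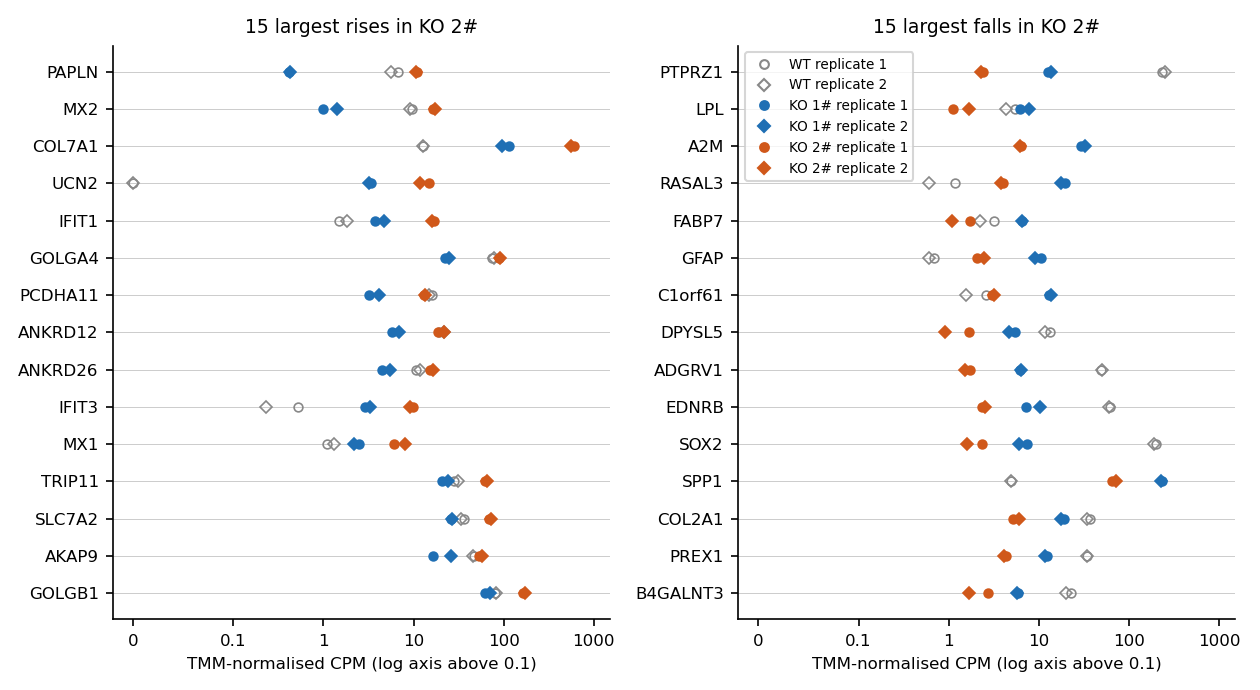
Level of the 15 largest rises and the 15 largest falls in every library, as TMM-normalised CPM on a log axis (linear below 0.1), with WT in grey, KO 1# in blue and KO 2# in orange. In each of the 30 genes the KO 1# and KO 2# libraries lie apart, while the WT libraries stand below, between or above them.

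The most abundant of the largest rises was COL7A1, the chain of the anchoring fibrils that tie epithelium to dermis (ENSG00000114270, chromosome 3, 48564073 to 48595267, minus strand). It stood at 116 and 94.7 CPM in KO 1# and 599 and 553 CPM in KO 2# (log2 fold change 2.45, SE 0.08, adjusted p = 1.60e-11), and WT had 12.8 and 12.8 CPM. UCN2, the peptide hormone urocortin 2, lies 299 bases away on the same strand (ENSG00000145040, chromosome 3, 48561727 to 48563773, minus strand) and had 3.34 and 3.24 CPM in KO 1# and 14.9 and 11.9 CPM in KO 2# (log2 fold change 2.03, SE 0.23, adjusted p = 3.43e-05), with 0 and 0 counts in WT. Exons of UCN2 overlap those of the next gene on that strand, PFKFB4, a regulator of glycolysis, which had 54.1 and 48.4 CPM in KO 1# and 73 and 67.9 CPM in KO 2# (log2 fold change 0.46, SE 0.1, adjusted p = 0.0101), a call lost without KO 2# replicate 1. All 3 neighbours were thus higher in KO 2#, COL7A1 and UCN2 by more than 4-fold and PFKFB4 by less than 1.5-fold.

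PAPLN, the matrix protein papilin (ENSG00000100767, chromosome 14, 73237497 to 73274640, plus strand), had 13 and 14 counts in KO 1# and 301 and 316 in KO 2#, or 0.414 and 0.424 CPM in KO 1# and 10.9 and 10.7 CPM in KO 2# (log2 fold change 4.67, SE 0.27, adjusted p = 1.09e-08). WT stood at 6.67 and 5.69 CPM, so that KO 1# was the set apart. AC004846.1, an antisense gene on the opposite strand within PAPLN, had 0 and 0 counts in KO 1# and 75 and 73 in KO 2#, a level at least 27.8-fold higher in KO 2# when each KO 1# library is set to the floor of 3 counts. Since the strand setting of the counting is unknown, reads of this pair cannot be told apart.

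Genes that were detected in one set and at or near 0 in the other numbered 5, by a rule of at most 3 counts in each library of one set and at least 30 in each of the other. CXCL5, a neutrophil-attracting chemokine (ENSG00000163735, chromosome 4, 73995642 to 73998779, minus strand), had 0 and 0 counts in KO 1# and 44 and 94 in KO 2#, at least 25.6-fold higher in KO 2#. NAALADL1, a peptidase related to glutamate carboxypeptidase (ENSG00000168060, chromosome 11, 65044818 to 65058549, minus strand), had 0 and 0 counts in KO 1# and 40 and 85 in KO 2#, at least 23.2-fold higher. SLC39A4, the zinc importer ZIP4 (ENSG00000147804, chromosome 8, 144409742 to 144416895, minus strand), had 0 and 2 counts in KO 1# and 81 and 71 in KO 2#, a ratio of 85.5 (95% exact interval 23.3 to 713). The 3 genes and AC004846.1 were all detected in WT, where CXCL5 had 534 and 545 counts and SLC39A4 had 336 and 235. In the other direction SEMA5B, a semaphorin guidance protein (ENSG00000082684, chromosome 3, 122909082 to 123028605, minus strand), had 45 and 44 counts in KO 1# and 0 and 1 in KO 2#, a ratio of KO 1# over KO 2# of 79.1 (95% exact interval 13.8 to 3159). In WT it had 1761 and 1462 counts. These floors and intervals cover counting error only.

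Pairs of neighbouring genes past 2-fold were counted after the values of COL7A1 and UCN2 had been seen. Among the 219 genes past 2-fold, 11 pairs that follow each other within this set lay within 100000 bases of each other. Genes outside the set may lie between the members of a pair. The count is a description with no comparison to pairs of other genes. The pairs include MX2 with MX1, IFIT3 with IFIT1, and PAPLN with AC004846.1. ZNF880 and ZNF528, KRAB zinc finger genes on chromosome 19, were also such a pair: ZNF880 had 13 and 20 counts in KO 1# and 64 and 48 in KO 2# (log2 fold change 1.93, SE 0.33, adjusted p = 0.00214). ZNF528 had 0 and 1 counts in KO 1# and 17 and 6 in KO 2# (log2 fold change 4.43, SE 1.06, adjusted p = 0.0252), against 134 and 139 in WT. GFAP and C1QL1 on chromosome 17 both fell.

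The 15 largest falls among genes with a mean of at least 5 CPM in the higher knockout set included PTPRZ1, FABP7, GFAP, EDNRB and ADGRV1. They are described as a group here after their values were seen and with no test of a shared theme. PTPRZ1, a receptor tyrosine phosphatase of radial glia (ENSG00000106278, chromosome 7, 121873089 to 122062036, plus strand), stood at 12.8 and 13.7 CPM in KO 1# and 2.43 and 2.29 CPM in KO 2# (log2 fold change -2.49, SE 0.13, adjusted p = 2.06e-09), far below 235 and 251 CPM in WT. FABP7, the brain fatty acid binding protein, had 6.52 and 6.58 CPM in KO 1# and 1.74 and 1.08 CPM in KO 2# (log2 fold change -2.22, SE 0.31, adjusted p = 2.54e-04). GFAP, the intermediate filament of astrocytes, whose exons overlap CCDC103 and FAM187A on the other strand, had 10.6 and 9.12 CPM in KO 1# and 2.07 and 2.46 CPM in KO 2# (log2 fold change -2.12, SE 0.25, adjusted p = 4.73e-05). GFAP was lower still in WT, at 0.688 and 0.604 CPM, whereas PTPRZ1 was higher there, so the falls do not share a relation to WT. EDNRB, the endothelin receptor of neural crest, had 7.22 and 10.3 CPM in KO 1# and 2.32 and 2.56 CPM in KO 2# (log2 fold change -1.85, SE 0.18, adjusted p = 6.16e-06), and ADGRV1, a large adhesion receptor, had 6.14 and 6.36 CPM in KO 1# and 1.74 and 1.52 CPM in KO 2# (log2 fold change -1.94, SE 0.17, adjusted p = 1.97e-06). Of the list of 16 tested neural and neural crest markers, 1 was lower, MAP2, and its call was lost without KO 2# replicate 2. NES and L1CAM, the 2 most abundant members of that list, did not pass (log2 fold changes 0.06 and 0.01). NES had 218 and 201 CPM in KO 1# and 225 and 213 CPM in KO 2#. Neural lineage factors were near 0 in both sets, with PAX6 at 5 and 8 counts in KO 1# and 2 and 1 in KO 2# and SOX1 at 19 and 6 counts in KO 1# and 0 and 1 in KO 2#. The 5 neural markers summed to 3.44 and 2.30 CPM in KO 1# and 1.78 and 1.55 CPM in KO 2#, and their part in the falls was not tested.

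Of 25 genes of the core pluripotency list 3 were lower in KO 2#, against 2.28% of all tested genes, from levels already low in KO 1#. Most of the 25 passed the low-count filter through WT, and 3 had a mean of at least 5 CPM over the knockout libraries. In the fit of the 4 knockout libraries alone, 8 were tested and 2 were lower, so the share of 3 in 25 is not a fair measure against all genes. SOX2 (ENSG00000181449, chromosome 3, 181711924 to 181714436, plus strand) had 235 and 198 counts in KO 1# and 65 and 47 in KO 2#, or 7.48 and 6 CPM in KO 1# and 2.36 and 1.59 CPM in KO 2# (log2 fold change -1.78, SE 0.17, adjusted p = 5.68e-06), against 199 and 189 CPM in WT. POU5F1 (ENSG00000204531, chromosome 6, 31164337 to 31180731, minus strand), which overlaps TCF19 on the opposite strand, had 10 and 22 counts in KO 1# and 1 and 1 in KO 2#, a KO 1# to KO 2# ratio of 14.2 (95% exact interval 3.63 to 122). NANOG had 0 and 1 counts in KO 1# and 0 and 0 in KO 2#, too few to compare. DPPA4, a chromatin protein of pluripotent cells, kept a higher level at 22.7 and 27.1 CPM in KO 1# and 17.9 and 14.9 CPM in KO 2# (log2 fold change -0.61, SE 0.1, adjusted p = 0.00118), against 786 and 831 CPM in WT. The falls of the list were POU5F1, SOX2 and DPPA4, and 0 rose in edgeR, in DESeq2 or in limma-voom, with 1 higher at an unadjusted p below 0.05. The count was 5 without either KO 1# library, and in limma-voom SOX2 was the one left.

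Of 8 endothelial markers 2 were lower, against 2.28% of all tested genes. PECAM1, a junction protein of endothelium and blood cells, had 15.2 and 17.3 CPM in KO 1# and 6.81 and 6.61 CPM in KO 2# (log2 fold change -1.27, SE 0.2, adjusted p = 9.17e-04). CDH5, VE-cadherin, had 1.88 and 1.82 CPM in KO 1# and 0.471 and 0.405 CPM in KO 2# (log2 fold change -2.07, SE 0.55, adjusted p = 0.0425), a call lost without KO 1# replicate 1, without either KO 2# library and in limma-voom. The count was 1 without either KO 2# library, KDR, TEK, TIE1, EMCN, ERG and VWF did not pass, and the summed level of all 8 was 38.8 and 41.6 CPM in KO 1# and 21.48 and 22.97 CPM in KO 2#. In WT these 8 markers summed to 143 and 148 CPM, above both knockout sets, with KDR alone at 112 and 113 CPM. The leukocyte gene PTPRC had 6 and 10 counts in KO 1# and 21 and 16 in KO 2#, and HBB and ITGAM were at 0 in every knockout library. A2M, a plasma protease inhibitor also made by stroma and endothelium (ENSG00000175899, chromosome 12, 9067664 to 9116229, minus strand), had 29.3 and 32.4 CPM in KO 1# and 6.41 and 6.14 CPM in KO 2# (log2 fold change -2.3, SE 0.15, adjusted p = 3.76e-08), and LPL, lipoprotein lipase, had 6.24 and 7.70 CPM in KO 1# and 1.12 and 1.69 CPM in KO 2# (log2 fold change -2.3, SE 0.28, adjusted p = 5.53e-05). The part of endothelial cells in these falls was not tested.

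Matrix genes split in direction. Of 25 tested collagens 5 fell and 1 rose, COL7A1, against 2.28% and 1.58% of all tested genes, and with length and GC offsets 7 fell and 10 rose. COL15A1, a basement membrane collagen, had 454 and 435 CPM in KO 1# and 235 and 222 CPM in KO 2# (log2 fold change -0.96, SE 0.07, adjusted p = 8.78e-08), and COL6A3, a chain of the beaded microfibrils, had 2340 and 2214 CPM in KO 1# and 1535 and 1516 CPM in KO 2# (log2 fold change -0.58, SE 0.06, adjusted p = 4.06e-06). COL1A1, the chain of type I collagen and the most counted gene in each knockout library, did not pass (log2 fold change 0.04, adjusted p = 0.816), nor did COL3A1 (0.19, adjusted p = 0.0795). The collagen count moved between 2 and 8 lower and 1 and 5 higher when single libraries were left out: 8 fell without KO 1# replicate 2, 2 without either KO 2# library, 5 rose without KO 1# replicate 1, and 2 rose without either WT library. Cartilage and bone genes had 4 of 21 lower and 0 higher in edgeR, DESeq2, limma-voom and at an unadjusted p below 0.05. SPP1, osteopontin (ENSG00000118785, chromosome 4, 87975650 to 87983426, plus strand), had 235 and 228 CPM in KO 1# and 65.3 and 72.1 CPM in KO 2# (log2 fold change -1.75, SE 0.08, adjusted p = 3.46e-10), against 4.88 and 4.90 CPM in WT. COL2A1, the collagen of cartilage, had 19.1 and 17.6 CPM in KO 1# and 5.15 and 5.97 CPM in KO 2# (log2 fold change -1.72, SE 0.14, adjusted p = 5.38e-07). These were the largest called falls of that list, and the libraries of the sets did not overlap in either. The count of 4 was 2 without KO 2# replicate 2.

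Matrix remodelling genes also differed. Of 31 tested proteases and inhibitors 6 fell and 3 rose. MMP9, a gelatinase, had 51.2 and 43.8 CPM in KO 1# and 18.8 and 17.6 CPM in KO 2# (log2 fold change -1.38, SE 0.12, adjusted p = 1.35e-06), and MMP13, a collagenase, had 38.8 and 44.2 CPM in KO 1# and 20.03 and 20.5 CPM in KO 2# (log2 fold change -1.04, SE 0.12, adjusted p = 5.59e-05) with 0 in WT. MMP11, stromelysin 3, had 229.9 and 207 CPM in KO 1# and 121 and 114 CPM in KO 2# (log2 fold change -0.9, SE 0.07, adjusted p = 9.95e-07). TIMP3, an inhibitor bound to matrix and the most abundant of those that fell, had 1381 and 1399 CPM in KO 1# and 843 and 819 CPM in KO 2# (log2 fold change -0.74, SE 0.07, adjusted p = 1.79e-06). SULF1, a sulfatase that edits heparan sulfate chains, had 389.8 and 399 CPM in KO 1# and 172 and 175 CPM in KO 2# (log2 fold change -1.18, SE 0.06, adjusted p = 4.22e-09). Of 35 tested proteoglycans and glycoproteins 6 rose and 3 fell, and the rises were 2 without KO 2# replicate 1 and 1 without KO 2# replicate 2, and the falls 5 without KO 1# replicate 2. EFEMP1, fibulin 3, had 41.98 and 46.5 CPM in KO 1# and 88.9 and 93.1 CPM in KO 2# (log2 fold change 1.04, SE 0.09, adjusted p = 1.16e-06). SPARCL1, a matricellular protein, was lower at 1.72 and 1.55 CPM in KO 1# and 0.0725 and 0.169 CPM in KO 2# (log2 fold change -3.71, SE 0.59, adjusted p = 0.00103). POSTN, periostin, was higher at 3405 and 3964 CPM in KO 1# and 4583 and 4757 CPM in KO 2# (log2 fold change 0.34, SE 0.06, adjusted p = 0.00398), a call lost without KO 2# replicate 2. Laminin LAMA4 fell from 84.1 and 81.1 CPM to 48.98 and 48.4 CPM (log2 fold change -0.76, SE 0.09, adjusted p = 5.92e-05).

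A further group of rises consisted of long transcripts of low GC content, several for coiled-coil proteins of the Golgi, centrosome and nuclear pore. This group was put together after the values were seen. GOLGA4, a golgin of the trans-Golgi (ENSG00000144674, chromosome 3, 37243177 to 37366751, plus strand), had 22.5 and 24.7 CPM in KO 1# and 89.1 and 91.03 CPM in KO 2# (log2 fold change 1.93, SE 0.09, adjusted p = 3.46e-10). GOLGB1, giantin, had 61.7 and 70.2 CPM in KO 1# and 165 and 175 CPM in KO 2# (log2 fold change 1.36, SE 0.08, adjusted p = 1.09e-08), TRIP11, the golgin GMAP-210, had 20.5 and 24.3 CPM in KO 1# and 61.95 and 64.8 CPM in KO 2# (log2 fold change 1.5, SE 0.1, adjusted p = 8.78e-08), and AKAP9, a Golgi and centrosome anchor of kinase A, had 16.5 and 26 CPM in KO 1# and 52.8 and 57.4 CPM in KO 2# (log2 fold change 1.37, SE 0.14, adjusted p = 1.21e-05). In each of them KO 2# lay above KO 1# with no overlap. On the TMM scale WT stood nearer to KO 2# for GOLGA4 (73.8 and 77.5 CPM). For GOLGB1 WT stood nearer to KO 1# on that scale (80.5 and 81.5 CPM). In raw counts of GOLGB1, WT (4211 and 3913) stood nearer to KO 2# (4552 and 5182) than to KO 1# (1940 and 2316). TPR, the basket protein of the nuclear pore, which overlaps PRG4 on the opposite strand, had 45.9 and 51.9 CPM in KO 1# and 106 and 115 CPM in KO 2# (log2 fold change 1.18, SE 0.08, adjusted p = 8.78e-08). ATRX, a chromatin remodeller of heterochromatin, had 54.96 and 65.6 CPM in KO 1# and 127 and 127 CPM in KO 2# (log2 fold change 1.07, SE 0.08, adjusted p = 5.38e-07). UACA, a coiled-coil protein with ankyrin repeats and the most abundant of these genes, had 203 and 252 CPM in KO 1# and 502 and 497 CPM in KO 2# (log2 fold change 1.14, SE 0.09, adjusted p = 5.38e-07). CCDC88A, the actin-binding protein girdin, had 40.2 and 43.8 CPM in KO 1# and 87.1 and 86.1 CPM in KO 2# (log2 fold change 1.04, SE 0.08, adjusted p = 5.38e-07), and the ankyrin repeat genes ANKRD12 and ANKRD26 had log2 fold changes of 1.68 and 1.67.

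GC content moved with the comparison as a whole, whereas the median change did not rise with transcript length. The longest GENCODE transcript of GOLGA4 has 7772 bases and 39.4% GC, that of AKAP9 12471 bases and 38.2%. Among genes of at least 5 CPM, the 28 at least 2-fold higher had a median of 6883 bases and 40.3% GC, the 35 at least 2-fold lower 4349 bases and 50.6%, and all 10697 with a value 3906 bases and 48.0%. In the lowest of 5 equal groups of these genes by GC content, 98 were higher and 20 lower, with a median log2 fold change of 0.07. In the highest group 23 were higher and 89 lower, with a median of -0.05. The KO 1# replicates differed from each other along the same axis, with replicate 2 over replicate 1 at a median of 0.15 in the lowest group and -0.16 in the highest, a wider span than that between the sets. Among the 696 genes in both the lowest GC group and the longest of 5 length groups, 60 were higher and 5 lower. By length alone, the longest group had 104 higher and 78 lower, with a median of -0.0002. The shortest group had 46 higher and 31 lower, with a median of 0.06. In a fit of the 4 knockout libraries with offsets for length and GC, added after the data were seen, the log2 fold changes were 1.88 for GOLGA4, 1.3 for GOLGB1, 1.12 for TPR, 0.96 for ATRX, 1.65 for CENPE and 0.67 for CENPF, and all 6 passed. The part of GC content and length in these rises was not tested beyond that fit.

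**Figure D4:**
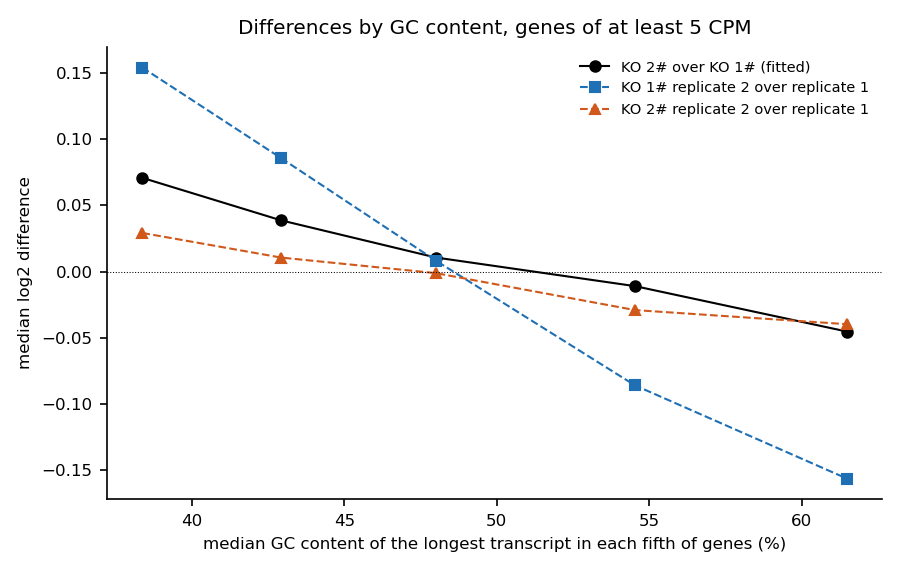
Median log2 difference (y axis) of genes of at least 5 CPM in 5 equal groups by GC content of the longest transcript (x axis, group median in percent). The black line is KO 2# over KO 1#, from 0.07 to -0.05, and the dashed lines are replicate 2 over replicate 1 within each set, with the widest span, 0.15 to -0.16, in KO 1#.

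Signalling genes moved in both directions. In the TGF-beta family list 8 of 40 tested rose and 2 fell (backgrounds 1.58% and 2.28%), the rises were 4 without either KO 2# library, and 1 fell without KO 2# replicate 2. The ligand BMP4 was lower, with 19.6 and 18.8 CPM in KO 1# and 9.64 and 10.5 CPM in KO 2# (log2 fold change -0.93, SE 0.15, adjusted p = 0.00120). The BMP target genes ID1 and ID3, inhibitors of helix-loop-helix factors, were higher: ID1 had 40.7 and 42.2 CPM in KO 1# and 74.3 and 75.2 CPM in KO 2# (log2 fold change 0.85, SE 0.08, adjusted p = 5.18e-06). ID3 had 212 and 186 CPM in KO 1# and 289 and 273 CPM in KO 2# (log2 fold change 0.5, SE 0.08, adjusted p = 7.01e-04). The ligand and its targets thus moved in opposite directions in these libraries. Among FGF, EGF and PDGF genes 4 of 43 rose and 6 fell. NRG1, the neuregulin ligand of ERBB receptors, had 49.7 and 52.2 CPM in KO 1# and 95.1 and 94 CPM in KO 2# (log2 fold change 0.89, SE 0.09, adjusted p = 6.02e-06). The receptor FGFR3 had 10.4 and 8.49 CPM in KO 1# and 4.06 and 4.12 CPM in KO 2# (log2 fold change -1.21, SE 0.19, adjusted p = 8.19e-04), and the feedback inhibitor SPRY1 had 18.8 and 21.9 CPM in KO 1# and 10.2 and 9.75 CPM in KO 2# (log2 fold change -1.03, SE 0.13, adjusted p = 6.61e-05). Without KO 2# replicate 1 the rises were 2, and without KO 2# replicate 2 the falls were 2.

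Among the imprinted genes 6 of 24 fell and 1 rose, with 3 falls without KO 2# replicate 1 and 1 without KO 2# replicate 2. The rise, KCNQ1OT1, was a call lost without KO 1# replicate 1 or either KO 2# library, and 3 rose without KO 1# replicate 2. IGF2, the fetal growth factor, which overlaps the readthrough gene INS-IGF2, kept its fall in all the alternatives and had 862 and 834 CPM in KO 1# and 545 and 536 CPM in KO 2# (log2 fold change -0.65, SE 0.07, adjusted p = 1.37e-05). In the IGF family list PAPPA, the protease that frees IGF from its binding proteins, was higher at 1051 and 1093 CPM in KO 1# and 1440 and 1430 CPM in KO 2# (log2 fold change 0.42, SE 0.06, adjusted p = 3.92e-04). STC2, a stanniocalcin that inhibits PAPPA, was higher as well at 90.3 and 78.2 CPM in KO 1# and 167 and 149 CPM in KO 2# (log2 fold change 0.91, SE 0.08, adjusted p = 3.00e-06). In the Notch list 3 of 21 fell (5 without KO 1# replicate 2), and the receptor NOTCH1 had 167 and 142 CPM in KO 1# and 103 and 100.2 CPM in KO 2# (log2 fold change -0.61, SE 0.08, adjusted p = 1.88e-04). Of WNT genes, the secreted antagonist DKK1 rose from 55.2 and 58.2 CPM to 88.2 and 84.9 CPM (log2 fold change 0.61, SE 0.08, adjusted p = 2.35e-04), and the receptor FZD1 fell from 83.3 and 85.7 CPM to 54.3 and 55.2 CPM (log2 fold change -0.63, SE 0.08, adjusted p = 1.82e-04), with 2 of 36 higher (1 without either KO 2# library) and 3 lower in that list. Among 53 guidance and adhesion receptors 4 rose and 6 fell, and each count was 2 without either KO 2# library. The semaphorin SEMA6A had 87.6 and 95.03 CPM in KO 1# and 46.4 and 51.3 CPM in KO 2# (log2 fold change -0.9, SE 0.07, adjusted p = 6.94e-07), and the ephrin receptor EPHB3 had 69.3 and 71.5 CPM in KO 1# and 42.1 and 40.8 CPM in KO 2# (log2 fold change -0.76, SE 0.09, adjusted p = 8.00e-05).

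Of cytokines, 4 of 25 rose and 2 fell (0 without KO 2# replicate 2), and CXCL5, named above as at 0 in KO 1#, was one of the rises. IL11, a cytokine of stromal cells, had 71.9 and 78.4 CPM in KO 1# and 113 and 115 CPM in KO 2# (log2 fold change 0.6, SE 0.09, adjusted p = 8.59e-04). CCL2, a monocyte chemokine, had 12.6 and 17 CPM in KO 1# and 26.1 and 26.8 CPM in KO 2# (log2 fold change 0.84, SE 0.15, adjusted p = 0.00296). In the ATF4 and unfolded protein response list 7 of 32 fell and 2 rose, with 3 falls and 1 rise without either KO 2# library and 4 rises without either KO 1# library. CHAC1, which degrades glutathione and is induced by ATF4, had 50 and 47.1 CPM in KO 1# and 25.7 and 25.03 CPM in KO 2# (log2 fold change -0.94, SE 0.1, adjusted p = 1.12e-05). PHGDH, the first enzyme of serine synthesis, had 102 and 95.3 CPM in KO 1# and 68.5 and 64.5 CPM in KO 2# (log2 fold change -0.57, SE 0.07, adjusted p = 9.34e-05). The list's rises, STC2 and HSPA5, went against its falls.

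Cytosolic ribosomal protein genes were higher by a small amount. Of 76 tested 9 rose in edgeR, against 1.58% of all tested genes, 42 in DESeq2, 7 in limma-voom and 38 in edgeR with length and GC offsets, and 56 were higher at an unadjusted p below 0.05. By each of these 0 fell. The list median was a log2 fold change of 0.16 and 72 members fitted above 0. Their summed level was 27504 and 26799 CPM in KO 1# and 30190 and 30209 CPM in KO 2#. RPL27A had 459 and 459 CPM in KO 1# and 549 and 557 CPM in KO 2# (log2 fold change 0.27, SE 0.06, adjusted p = 0.0114). No member passed without either KO 2# library, 22 and 23 passed without KO 1# replicate 1 and 2, and 2 passed with scaling by library totals, where the median was 0.11.

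**Figure D5:**
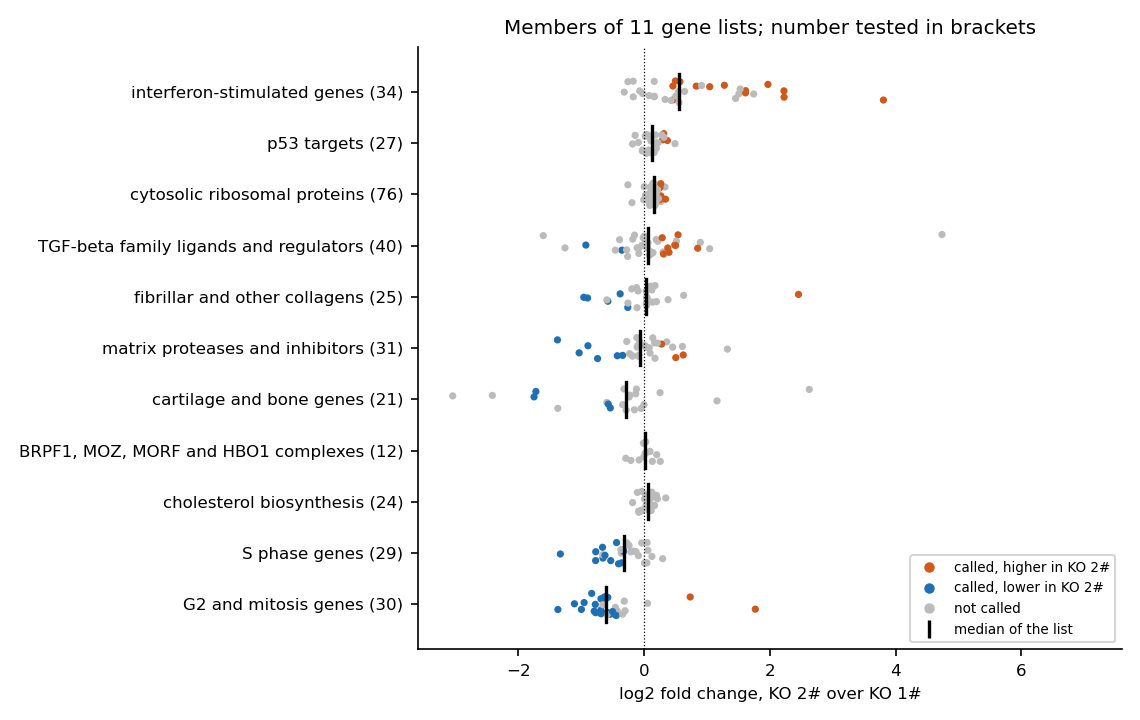
Log2 fold change, KO 2# over KO 1# (x axis), of every tested member of 11 gene lists, with called members in orange (higher) or blue (lower) and the list median as a black bar. The medians run from -0.61 for G2 and mitosis genes to 0.55 for interferon-stimulated genes, and the BRPF1 complex and cholesterol lists sit near 0.

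In several lists 0 members passed in edgeR. Of 24 cholesterol biosynthesis genes 4 were higher at an unadjusted p below 0.05, DESeq2 called 1 and limma-voom 0, and 3 passed without KO 1# replicate 2. Of 21 smooth muscle and contractile genes 7 were higher and 3 lower at an unadjusted p below 0.05, DESeq2 called 3 higher and limma-voom 1, and with length and GC offsets 9 were higher and 2 lower. Without the offsets edgeR called 3 higher without KO 1# replicate 1 and 1 higher and 2 lower without KO 1# replicate 2. Of 19 H3K4 methyltransferase complex genes and demethylases 1 was lower at an unadjusted p below 0.05, and DESeq2 and limma-voom called 0. Of 15 tested HOX genes 0 passed by any of these measures, and HOXB2 had 38.8 and 38.7 CPM in KO 1# and 36.2 and 35.8 CPM in KO 2# (log2 fold change -0.11, SE 0.12, adjusted p = 0.751).

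Across chromosomes 1 to 22 and X, medians of log2 fold change over genes of at least 1 CPM ran from -0.05 on chromosome 22 and -0.03 on chromosome 16 to 0.03 on chromosome 5 and 0.04 on chromosome 4. In 378 windows of 50 neighbouring genes the medians ran from -0.11 to 0.17.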

How the data were processed

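RNA of 6 libraries was counted per gene by the authors, and the deposited values are raw counts. The submitters' processing notes name HISAT2 2.0.4, SAMtools 1.3.1, HTSeq 0.6.0, DESeq 1.18.1 and hg38. Which annotation release and strand option were used is not given in the sources used here, so overlapping genes on opposite strands may share reads. Totals were near each other (33421785 to 38098779 counts). Of 58395 identifiers, 58275 were located in GENCODE annotation of GRCh38. Genes passing edgeR's filterByExpr (minimum count 10) were fitted with edgeR 4.0.16 (R 4.3.3; quasi-likelihood test, robust, TMM) over 6 libraries in 3 groups, and the contrast KO 2# minus KO 1# was adjusted by Benjamini-Hochberg over 19660 genes, with calls at an adjusted p below 0.05. Levels are TMM-normalised CPM. The biological coefficient of variation was 0.083. Alternatives used other scalings and filters, DESeq2 1.42.0, limma-voom 3.58.1, the knockout libraries alone, a replicate block, each library left out and length and GC offsets.

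The members and the 47 gene lists were chosen with earlier results of these data known. Genes are named by rule: BRPF1, POU5F1, SOX2 and NANOG, the 15 largest rises and falls at a mean of 5 CPM or more in the higher knockout set, the 10 most abundant called genes at 2-fold, and up to 4 called members of a list, or its 2 most abundant. Others (among them DDX58, STAT2, IRF9, TOP2A, MKI67, CDK1, the MCM genes, COL1A1, COL3A1, PAX6, SOX1, PTPRC, ZNF880, ZNF528, DTX1, the protocadherins and the long transcripts of low GC content) were chosen after their values were seen.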

Additional observations from a re-analysis of the deposited data

How the results depend on the processing

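No call changed sign, but the alternatives refit the same libraries and could hardly turn a called gene around. Of the 151 called genes among the 188 named or eligible to be named, 92 stayed called under every alternative. The count of higher genes (311) became 522 in DESeq2, 512 with the 4 knockout libraries alone, 804 with the replicate block and 836 with the length and GC offsets, an alternative chosen after seeing the data. The count of lower genes (448) became 198 in limma-voom, 830 with the replicate block and 708 with the offsets. At 2-fold and more, 62 genes were lower in limma-voom. Leaving out 1 library at a time gave 153 to 695 higher and 213 to 702 lower genes, and at 2-fold 65 to 124 higher and 117 to 232 lower. Such fits assume that the lone library of a set varies like the other groups. With the block, 85 genes were at least 2-fold higher and 207 lower, and 49.2% of calls were higher. It called 54 ribosomal protein genes, 6 smooth muscle genes and 6 collagens higher, and 7 collagens lower. Same-numbered libraries of KO 1# and KO 2# deviated together with a correlation of 0.142 over 10702 genes, those of WT and KO 1# with 0.317 and those of WT and KO 2# with 0.0854. With 2 numbers and no stated pairing the libraries are treated as sharing a number alone. The cause of these shifts was not tested. With 3 residual degrees of freedom and counts of 3 or fewer in a library, small differences and genes near 0 are not resolved.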

Other observations

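Genes outside the groups above also changed, and the first 5 of this paragraph come from the rules of size. RASAL3, a RAS GTPase activator of blood cells, had 19.5 and 17.9 CPM in KO 1# and 3.99 and 3.78 CPM in KO 2# (log2 fold change -2.27, SE 0.21, adjusted p = 3.75e-06). PREX1, an exchange factor for RAC, had 12.2 and 11.8 CPM in KO 1# and 4.38 and 4.15 CPM in KO 2# (log2 fold change -1.49, SE 0.14, adjusted p = 4.09e-06), and B4GALNT3, a glycosyltransferase, had 5.86 and 5.79 CPM in KO 1# and 2.75 and 1.69 CPM in KO 2# (log2 fold change -1.4, SE 0.22, adjusted p = 8.59e-04). DPYSL5, a neuronal cytoskeleton protein, had 5.47 and 4.67 CPM in KO 1# and 1.67 and 0.911 CPM in KO 2# (log2 fold change -1.98, SE 0.27, adjusted p = 1.90e-04). These 4 stayed called as lower under every alternative. SLC7A2, a transporter of arginine and lysine, was higher, with 25.8 and 26.8 CPM in KO 1# and 69.6 and 73.1 CPM in KO 2# (log2 fold change 1.44, SE 0.09, adjusted p = 3.22e-08). Of 21 tested YAP and TEAD targets 2 rose and 1 fell (1.58% and 2.28% of all tested genes), and ANKRD1 had 778 and 884 CPM in KO 1# and 1080 and 1119 CPM in KO 2# (log2 fold change 0.4, SE 0.06, adjusted p = 9.17e-04). Without KO 1# replicate 1 and 2 the rises were 4 and 5, without KO 2# replicate 1 there was 1, and without KO 2# replicate 2 the falls were 0. Of 27 epithelial and keratin genes 3 rose (1.58% of all tested genes), and DSP, the desmosome protein desmoplakin, had 142 and 143 CPM in KO 1# and 199 and 197 CPM in KO 2# (log2 fold change 0.47, SE 0.07, adjusted p = 2.51e-04). That count was 6 without KO 1# replicate 2 and 2 without KO 2# replicate 2.

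Protocadherins of the clustered families, adhesion proteins of which a cell line tends to use a subset, were looked at after the values were seen. Of 53 genes, 51 were tested and 3 passed, a share near the 3.86% of all tested genes called, so the count is no result on the family. PCDHA11 had 3.21 and 4.18 CPM in KO 1# and 13.1 and 13.4 CPM in KO 2# (log2 fold change 1.84, adjusted p = 3.57e-06), with 15.9 and 14.8 CPM in WT. PCDHA10, its neighbour, had 26.1 and 27.9 CPM in KO 1# and 16.96 and 18.1 CPM in KO 2# (log2 fold change -0.62, adjusted p = 0.00643). PCDHB2 had 53.3 and 56.6 CPM in KO 1# and 72.1 and 69.95 CPM in KO 2# (log2 fold change 0.37, adjusted p = 0.0243). The PCDHA genes share their last exons, so reads there cannot be assigned to 1 member. DTX1, a ubiquitin ligase of the Notch pathway that lies near OAS3, fell while OAS3 rose, with 55 and 68 counts in KO 1# and 4 and 3 in KO 2# (log2 fold change -3.93, adjusted p = 1.62e-05).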
